A study of Mus musculus with 2 samples.

Results

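The mouse genome holds its odorant and pheromone receptor genes in large tandem clusters, and 321 of the 12554 EHMT2 peaks on chromosomes 1 to 19, X and Y lay within 25 kb of such genes. A peak was taken when its summit, the position of highest coverage, fell inside a gene record named Olfr, Vmn1r or Vmn2r in GENCODE vM21, extended by 25 kb on each side. The 3 families gave 207 peaks at olfactory receptor (Olfr) records, 45 at type 1 vomeronasal receptor (Vmn1r) records and 69 at type 2 vomeronasal receptor (Vmn2r) records, and 0 peaks belonged to 2 families. The choice used gene names and summit positions, not peak strength. Members were 2.56% of all peaks on 2.04% of the sequence.

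The peaks came from a single group of 2 libraries of mouse embryonic stem cells (mESCs) of the KH2 line (C57BL/6J x 129S1 F1, labelled BL6/129 hybrid), grown on feeder cells with serum and LIF. Both alleles of Ehmt2 ended in a cassette holding the FKBP12F36V degron (dTAG), 2 HA epitopes and an mCherry reporter, and the cells had received the solvent DMSO for 24 h, so that the tagged EHMT2 was present. ChIP-exo, in which bound DNA is trimmed by an exonuclease after immunoprecipitation, used an anti-HA antibody. The reads of both libraries were pooled before peaks were called without a control library, and the study called the cells EHMT2-dTAG mESCs. No value below therefore has a replicate error, no comparison was tested, and every interval (95%) covers counting error only. Neighbouring peaks and copies of a repeat are not independent, so these intervals are narrow. The tag sits on every EHMT2 molecule of these cells, reads from the feeder cells were not separated, and no cells lacking the tag were analysed here.

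EHMT2 (G9a) works in a complex with EHMT1 and places H3K9me2, a histone mark of silent chromatin. Receptor genes are known as targets of silencing: a mature olfactory sensory neuron expresses a single Olfr allele and keeps the others in heterochromatin, and vomeronasal neurons choose among Vmn1r and Vmn2r genes in a similarly restricted way. Olfr and Vmn1r genes have a single coding exon, whereas Vmn2r genes have several and encode a long extracellular domain. These genes are known from sensory neurons, and neither their expression nor H3K9me2 is part of the peak list from mESCs.

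The sequences at the strongest peaks are shown first. They were alike across the 3 families, and sequence of this kind was also common among peaks elsewhere. Each is 151 bp centred on a summit, read from GRCm38.p6 (the coordinates of mm10), and for each family the peak shown is the one with the highest −log10 q whose window met no annotated exon and had no exact copy on a chromosome from which no sequence is shown. A further peak lay in the promoter of Olfr641. Capitals mark a run of 30 bases that the first 3 share.
Olfr380, chr11:73469895-73470045, plus strand: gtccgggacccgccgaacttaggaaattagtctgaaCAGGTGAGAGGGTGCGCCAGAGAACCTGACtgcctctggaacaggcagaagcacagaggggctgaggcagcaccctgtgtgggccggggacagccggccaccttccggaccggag
Vmn1r64, chr7:5860412-5860562, plus strand: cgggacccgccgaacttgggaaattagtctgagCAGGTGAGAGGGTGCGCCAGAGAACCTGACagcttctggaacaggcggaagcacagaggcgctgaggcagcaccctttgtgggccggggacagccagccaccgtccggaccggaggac
Vmn2r-ps64, chr7:85023960-85024110, minus strand: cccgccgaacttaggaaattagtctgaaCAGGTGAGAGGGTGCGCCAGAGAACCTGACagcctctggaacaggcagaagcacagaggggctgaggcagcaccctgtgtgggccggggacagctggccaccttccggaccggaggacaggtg
Olfr641, chr7:104033912-104034062, minus strand: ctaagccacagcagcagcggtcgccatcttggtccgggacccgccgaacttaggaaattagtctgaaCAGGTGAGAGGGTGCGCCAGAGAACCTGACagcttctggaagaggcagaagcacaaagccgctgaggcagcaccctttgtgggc

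Over 151 bp the Olfr380 sequence was 90.1% identical to that of Vmn1r64 (15 edits) and 88.1% identical to that of Vmn2r-ps64 (18 edits), and the latter pair was 87.4% identical. The Olfr641 window held the same run of 30 bases further from its left end. The 4 belonged to the largest of the groups into which the peaks fell when the 301 bp around each summit were aligned to one another (at least 80% identity over 150 bp), a group with 6252 of the 12554 peaks. The 50 bp at the summit of the Olfr380 peak occurred 3 times in the assembly, against 1720 times for Vmn1r64, 936 for Vmn2r-ps64 and 3927 for Olfr641.

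Other members show further kinds of sequence. Vmn2r69 marks the strongest summit whose 50-mer occurs once in the assembly, Olfr1507 the strongest member of the second largest sequence family, and Olfr1556-ps1 the strongest unique summit that aligned to no other peak, all under the limits given above. All are on the plus strand, and capitals mark the 50 bp whose copies were counted.
Vmn2r69, chr7:85387846-85387996: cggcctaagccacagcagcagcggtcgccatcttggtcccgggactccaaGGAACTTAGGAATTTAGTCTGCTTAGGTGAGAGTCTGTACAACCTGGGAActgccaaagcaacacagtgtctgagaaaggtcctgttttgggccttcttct
Olfr1507, chr14:52500229-52500379: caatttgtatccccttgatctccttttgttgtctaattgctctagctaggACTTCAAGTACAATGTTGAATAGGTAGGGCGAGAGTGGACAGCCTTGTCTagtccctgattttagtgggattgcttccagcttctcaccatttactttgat
Olfr1556-ps1, chr10:106513908-106514058: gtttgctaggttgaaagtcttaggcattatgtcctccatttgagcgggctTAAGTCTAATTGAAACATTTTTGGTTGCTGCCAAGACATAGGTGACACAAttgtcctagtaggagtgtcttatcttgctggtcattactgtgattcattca

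The run of 30 bases came from 3 of the strongest peaks, so its link to strength was fixed by that choice, and its frequency is given as a description. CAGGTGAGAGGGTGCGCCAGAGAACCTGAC, searched on both strands within 301 bp centred on the summit, was found at 36 of the 321 members (11.2%), all in the largest sequence family. It was present at 26 of 207 Olfr peaks (12.6%), 5 of 45 Vmn1r peaks (11.1%) and 5 of 69 Vmn2r peaks (7.25%). Among all peaks the share was 9.64%, so members did not stand far from the list as a whole. Windows of the same length tiled over the receptor intervals held it in 0.0814% of cases, and those tiled over all chromosomes in 0.0465%. Fold enrichment is the authors' ratio of fragments at the summit to local background with a constant added to both, which makes it lower than the plain ratio. At the Olfr380 peak, 68 fragments over a background of 3.30 gave a fold of 16.1. The fragment number was recovered from the fold and from the p-value.

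Olfr genes had more peaks per Mb around them than the genome, and the vomeronasal families did not differ from it beyond counting error. The 1407 Olfr records and their flanks covered 31.41 Mb and held 6.59 peaks per Mb (95% Poisson interval 5.72 to 7.55), against 4.74 over all chromosomes, a ratio of 1.39 (1.21 to 1.59). The 327 Vmn1r records covered 9.58 Mb with 4.70 peaks per Mb (3.43 to 6.28), a ratio of 0.990 (0.722 to 1.33). For the 238 Vmn2r records the values were 13.28 Mb, 5.20 peaks per Mb (4.04 to 6.58) and a ratio of 1.10 (0.853 to 1.39). Olfr density was 1.40 times that of Vmn1r (1.01 to 1.98) and 1.27 times that of Vmn2r (0.961 to 1.69), and Vmn2r density was 1.11 times that of Vmn1r (0.749 to 1.65). The 3 families together gave 5.95 peaks per Mb (5.31 to 6.63), a ratio of 1.25 (1.12 to 1.40).

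Repeat content also differed between the families, in the opposite order to their densities. Soft-masked bases, read here as repeats, made up 46.6% of the Olfr intervals, 55.4% of the Vmn1r and 52.5% of the Vmn2r intervals, against 36.4% of all chromosomes. Counting only summits in soft-masked bases, per Mb of such bases, Olfr intervals had 13.5 (11.7 to 15.6), Vmn1r 8.29 (6.02 to 11.1) and Vmn2r 9.17 (7.07 to 11.7), against 10.7 for all chromosomes. On this scale the ratio to the genome was 1.27 (1.10 to 1.46) for Olfr, 0.775 (0.563 to 1.04) for Vmn1r and 0.859 (0.661 to 1.10) for Vmn2r. The Olfr ratio was thus above 1 on both scales, but it turned to 0.528 when only summits whose 50-mer occurs once in the assembly were counted. That value rests on 15 Olfr summits, and no counting interval was computed for it. Sequence up to 500 kb beside the intervals held 4.60 peaks per Mb for Olfr (4.10 to 5.14), 4.08 for Vmn1r (3.21 to 5.11) and 4.86 for Vmn2r (4.09 to 5.73). The part of repeat content in the family differences was not tested beyond this count.

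**Figure D1:**
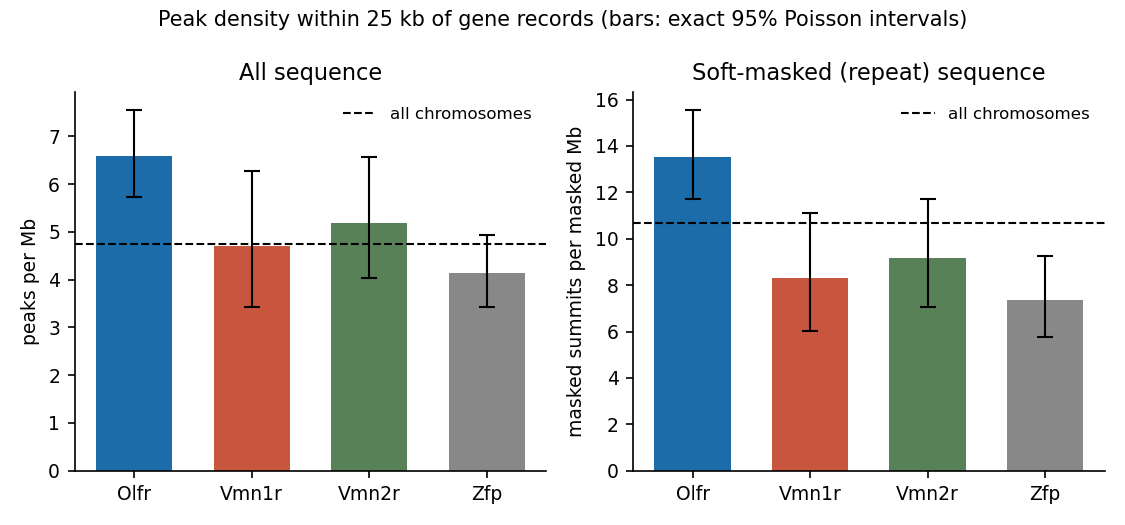
Peaks per Mb within 25 kb of Olfr, Vmn1r, Vmn2r and Zfp gene records (left) and soft-masked summits per soft-masked Mb (right), with exact 95% Poisson intervals and the value for all chromosomes as a dashed line. Olfr lies above the line on both scales, at 6.59 against 4.74 and at 13.5 against 10.7, and the vomeronasal intervals include it.

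Other gene families of tandem clusters were set beside them. Zfp records, a large class of zinc finger genes of which many are also clustered, had 120 peaks in 29.05 Mb, or 4.13 per Mb (3.43 to 4.94). Tas1r and Tas2r taste receptor records held 12 peaks in 1.22 Mb, or 9.84 per Mb (5.08 to 17.2). Their ratio to the genome, 2.075 (1.072 to 3.624), was above 1, as at Olfr. On the soft-masked scale it was 2.357 (1.218 to 4.117). The smaller chemosensory families had few peaks on short sequence, 0 at trace amine-associated receptor (Taar) records in 0.239 Mb, 1 at formyl peptide receptor (Fpr) records in 0.349 Mb and 2 at Ms4a records in 0.690 Mb. The count of 0 at Taar records allows up to 15.4 per Mb, and the intervals at Fpr (0.0725 to 15.9 per Mb) and Ms4a records (0.351 to 10.5) include the genome's 4.74, so that no difference was detectable at these sizes.

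The peaks lay between receptor genes and rarely in them. Of the 321 members, 39 had their summit inside a receptor record: 22 of the 207 Olfr peaks, 0 of the 45 Vmn1r peaks and 17 of the 69 Vmn2r peaks. Inside Olfr records the density was 2.73 per Mb (1.71 to 4.13), from 22 peaks in 8.06 Mb. It was 5.95 (4.59 to 7.59) in the first 5 kb outside them, 10.8 (8.26 to 13.8) from 5 to 10 kb and 8.70 (6.61 to 11.2) from 10 to 25 kb. Beyond this it fell back, to 5.54 (3.71 to 7.96) from 25 to 50 kb and 4.39 (3.08 to 6.08) from 50 to 100 kb. Among these bands, the intervals from 5 to 10 kb and from 10 to 25 kb lay above the genome's 4.74 and the interval inside the records lay below it.

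Both vomeronasal families also had lower values inside their records than outside them, with the highest value at 10 to 25 kb and overlapping intervals between neighbouring bands. Vmn1r records held 0 peaks in 1.68 Mb, which allows up to 2.197 per Mb, and the density was 5.72 (2.96 to 9.99) from 5 to 10 kb and 7.22 (4.47 to 11.04) from 10 to 25 kb outside them. Vmn2r records, which are longer because of their introns, held 3.46 per Mb (2.02 to 5.54), 5.11 from 5 to 10 kb (2.45 to 9.41) and 7.39 from 10 to 25 kb (5.02 to 10.5). Around them the density was 4.32 (2.42 to 7.13) from 25 to 50 kb and again higher, 7.02 (4.80 to 9.92), from 50 to 100 kb. Over all receptors the density inside records was 2.66 per Mb (1.89 to 3.64), below the 4.74 of the genome, and from 5 to 10 kb it was 8.58 (6.84 to 10.6). All protein-coding records of the genome had 3.71 per Mb inside (3.59 to 3.83), 4.54 from 5 to 10 kb (4.13 to 4.97) and 5.10 from 10 to 25 kb (4.78 to 5.42).

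Soft-masked sequence followed a similar course, from 26.3% inside Olfr records to 63.2% at 5 to 10 kb and 36.3% at 50 to 100 kb. Per soft-masked Mb, Olfr records held 9.44 summits inside (5.77 to 14.6), 17.04 from 5 to 10 kb (13.1 to 21.9) and 10.8 from 50 to 100 kb (7.36 to 15.2). The higher value at 5 to 10 kb therefore remained on the repeat scale, whereas the interval inside the records included the genome's 10.7. For all receptors the soft-masked values were 6.89 inside (4.77 to 9.63) and 13.2 from 5 to 10 kb (10.5 to 16.3). The interval inside lay below the genome's 10.7, and that from 5 to 10 kb included it. From 5 to 10 kb, Vmn1r had 8.24 (4.26 to 14.4) and Vmn2r 7.40 (3.39 to 14.1). Both intervals include the genome's 10.7 and overlap that of Olfr, the only one to lie above 10.7 there. From 10 to 25 kb the values were 15.03 (11.29 to 19.61) for Olfr, 11.67 (7.22 to 17.84) for Vmn1r and 12.59 (8.49 to 17.97) for Vmn2r.

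**Figure D2:**
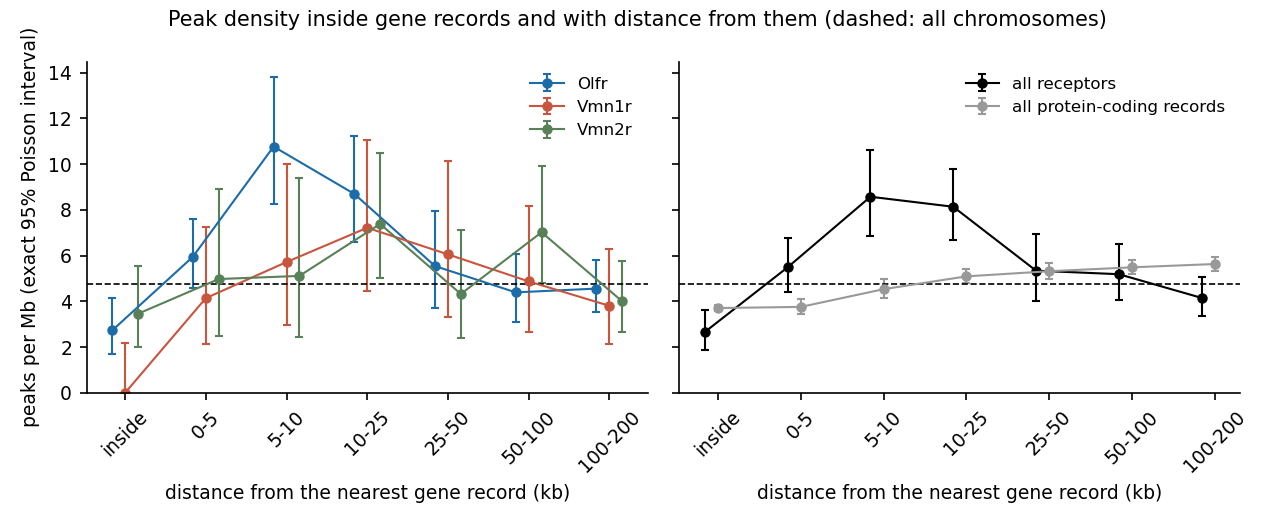
Peaks per Mb (exact 95% Poisson intervals) inside gene records and in bands of distance from them in kb, for the 3 families (left) and for all receptors against all protein-coding records (right), with the genome's density dashed. Receptor records lie under the line inside and peak between 5 and 25 kb, with 2.66 inside and 8.58 at 5 to 10 kb over all receptors.

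Position relative to transcription start sites (TSSs) gave a similar picture. The median distance of a member to the nearest receptor TSS was 10043 bp, with 7873 bp for Olfr, 10629 bp for Vmn1r and 19965 bp for Vmn2r, and 164 lay upstream of that TSS against 157 downstream. Receptor promoters (2.5 kb upstream to 0.5 kb downstream of a TSS) held 20 summits, 18 of them at Olfr and 2 at Vmn2r records. Together 267 members (83.2%) lay outside both receptor records and receptor promoters. Receptor exons held 7 summits, all at Olfr records, and receptor coding sequence held 0. Considering genes of any kind, 17.1% of members were inside a gene record, against 37.6% of all other peaks. Receptor records made up 14.66 of the 54.00 Mb of receptor intervals, and protein-coding records 1039 of the 2648 Mb of the chromosomes. The choice of members thus bears on this contrast.

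The strongest promoter peak, at Olfr1267-ps1 (a polymorphic pseudogene on chromosome 2), had its summit 1369 bp upstream of the TSS with a fold enrichment of 12.3 and 58 fragments. It was followed by Olfr1504, with a summit 2067 bp upstream (11.4, 49 fragments), Olfr294, 1428 bp upstream (10.4, 33 fragments), and Olfr641, 1458 bp upstream (9.62, 33 fragments). Olfr335-ps (8.34), Olfr363-ps (7.62), Olfr419 (6.81) and Olfr1044 (7.24) came next in the order of −log10 q. Of these 8 promoter peaks, 7 belonged to the largest sequence family and that of Olfr1044 did not. Peaks in exons were weaker, and the strongest 2, at Olfr648 and Olfr46, had folds of 6.68 and 5.59 with 10 and 11 fragments.

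A summit within 25 kb was found for 400 of 1407 Olfr records (28.4%, 95% Wilson interval 26.1 to 30.8%), 75 of 327 Vmn1r records (22.9%, 18.7 to 27.8%) and 72 of 238 Vmn2r records (30.3%, 24.8 to 36.4%). Among all 55413 gene records of the annotation the share was 22.1%, and among 21938 protein-coding records it was 25.7%. The Olfr share was above both, the Vmn2r share above that of all records with an interval that includes that of protein-coding ones, and the Vmn1r share close to both. Records also differed in length, with medians of 5506 bp for Olfr, 1219 bp for Vmn1r, 18627 bp for Vmn2r, 3331 bp for all and 17425 bp for protein-coding records, and a longer record has a longer window. Protein-coding and other records of a family did not separate. The shares were 28.1% and 29.8% for Olfr, 25.4% (19.9 to 31.7%) and 18.6% (12.7 to 26.6%) for Vmn1r, and 32.8% and 27.6% for Vmn2r. Neighbouring genes share peaks, so that these counts are not independent.

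Most of these genes had 1 peak. Olfr342 and its neighbour Olfr343-ps1 on chromosome 2 had the most, the same 4 summits, with folds from 4.16 to 9.49 and 6 to 12 fragments, all in the largest sequence family. Of the Olfr records, 76 had 2 or more summits within 25 kb, against 10 Vmn1r and 17 Vmn2r records, for which 2 was the highest number.

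Intervals of a family less than 500 kb apart were joined into 118 clusters. The richest Olfr clusters were Olfr987 to Olfr1274-ps on chromosome 2 with 25 peaks among 287 records, Olfr543 to Olfr692 on chromosome 7 with 21 among 156, and Olfr160 to Olfr986 on chromosome 9 with 16 among 123. The first is the largest Olfr cluster of all and had the lowest density of the 10 Olfr clusters of at least 1 Mb, 5.04 per Mb (3.27 to 7.45). The highest, 8.77 (4.38 to 15.7), was that of Olfr90 to Olfr136 on chromosome 17 with 11 peaks. With the joining rule and the full peak list used here, all 10 were above the genome's 4.74. In 1 of them the interval was too: the cluster of Olfr543 to Olfr692, at 8.47 per Mb (5.24 to 12.9), which encloses the 7 Hbb globin records, with 1 peak within 25 kb of those.

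Among vomeronasal clusters of at least 1 Mb, both the densest and the emptiest lay on chromosome 7. Vmn2r-ps62 to Vmn2r79 had 12 peaks in 1.62 Mb, or 7.42 per Mb (3.83 to 12.96), whereas Vmn2r-ps35 to Vmn2r52 had 2 peaks in 2.13 Mb, or 0.940 per Mb (0.114 to 3.40). The latter was the only cluster of the 17 of at least 1 Mb whose interval lay below the genome's density. Its 2 peaks had folds of at most 4.44. Next lowest was Vmn1r91 to Vmn1r183, also on chromosome 7, with 6 peaks in 2.62 Mb, or 2.29 per Mb (0.842 to 4.99). Vmn1r4 to Vmn1r-ps23 on chromosome 6 and Vmn1r-ps92 to Vmn1r-ps135 on chromosome 13 had 6 peaks each, at 4.99 (1.83 to 10.9) and 4.82 (1.77 to 10.5) per Mb. Vmn2r90 to Vmn2r110 on chromosome 17 had 8 peaks, at 3.40 per Mb (1.47 to 6.71).

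The 2 emptiest of these clusters stood apart in another measure, repetition of their own sequence. Of 50-mers taken every 1 kb, 80.9% in Vmn2r-ps35 to Vmn2r52 and 78.3% in Vmn1r91 to Vmn1r183 occurred at least 2 times in the assembly. In the other 15 clusters of at least 1 Mb the share ran from 13.7 to 27.8%, with 17.3% in Vmn2r-ps62 to Vmn2r79. High-copy sequence did not differ in this way. The share of 50-mers with over 100 copies was 7.03% and 10.2% in the emptiest pair and 8.56% in Vmn2r-ps62 to Vmn2r79. Over the families, repeated 50-mers made up 17.3% of the Olfr, 39.6% of the Vmn1r and 38.4% of the Vmn2r intervals, against 14.1% of all chromosomes. A read that matched several sites equally well was kept at 1 of them drawn at random, so the depth of a duplicated stretch is spread over its copies, and the part of this in the low counts was not tested.

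**Figure D3:**
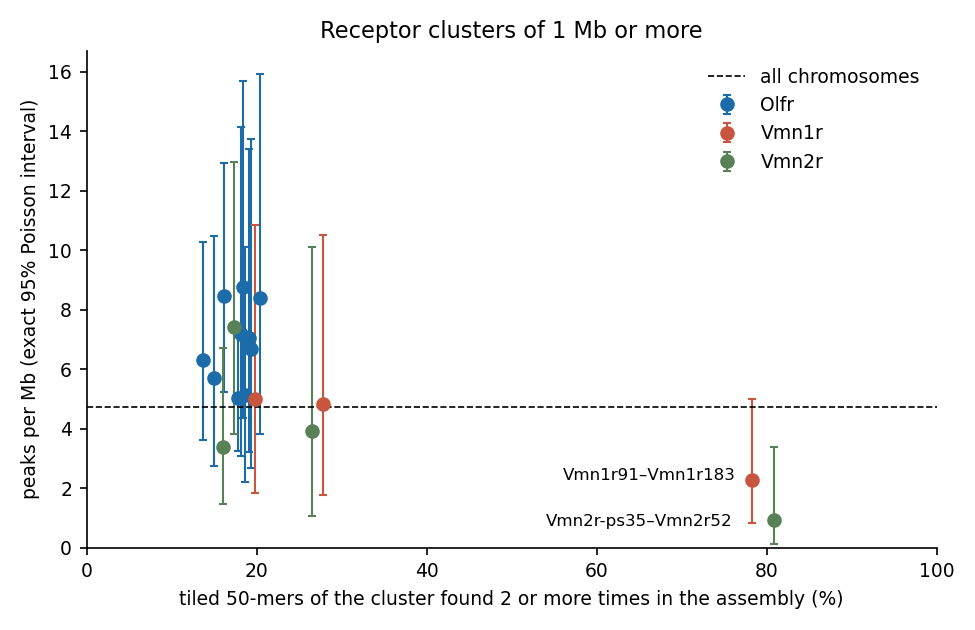
Peaks per Mb (exact 95% Poisson intervals) of the 17 receptor clusters of at least 1 Mb against the percentage of their tiled 50-mers found 2 or more times in the assembly. Vmn1r91 to Vmn1r183 (78.3%, 2.29 per Mb) and Vmn2r-ps35 to Vmn2r52 (80.9%, 0.940 per Mb) lie far to the right of the other 15 clusters and lowest.

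Of the 118 clusters 47 (39.8%) had 0 peaks, 25 of 68 Olfr, 8 of 20 Vmn1r and 14 of 30 Vmn2r clusters. They were small. The 47 covered 3.89 Mb, and 32 consisted of a single gene. The longest Olfr clusters with 0 peaks were Olfr275 to Olfr270 (0.207 Mb) and Olfr70 to Olfr155 (0.206 Mb) on chromosome 4 and Olfr1416 to Olfr12 (0.195 Mb) on chromosome 1. The longest of all 47 was Vmn2r-ps15 to Vmn2r-ps20 (0.302 Mb) on chromosome 4. At the genome's density of 4.74 per Mb, lengths of this order hold few peaks, and a count of 0 in them is within counting error.

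**Figure D4:**
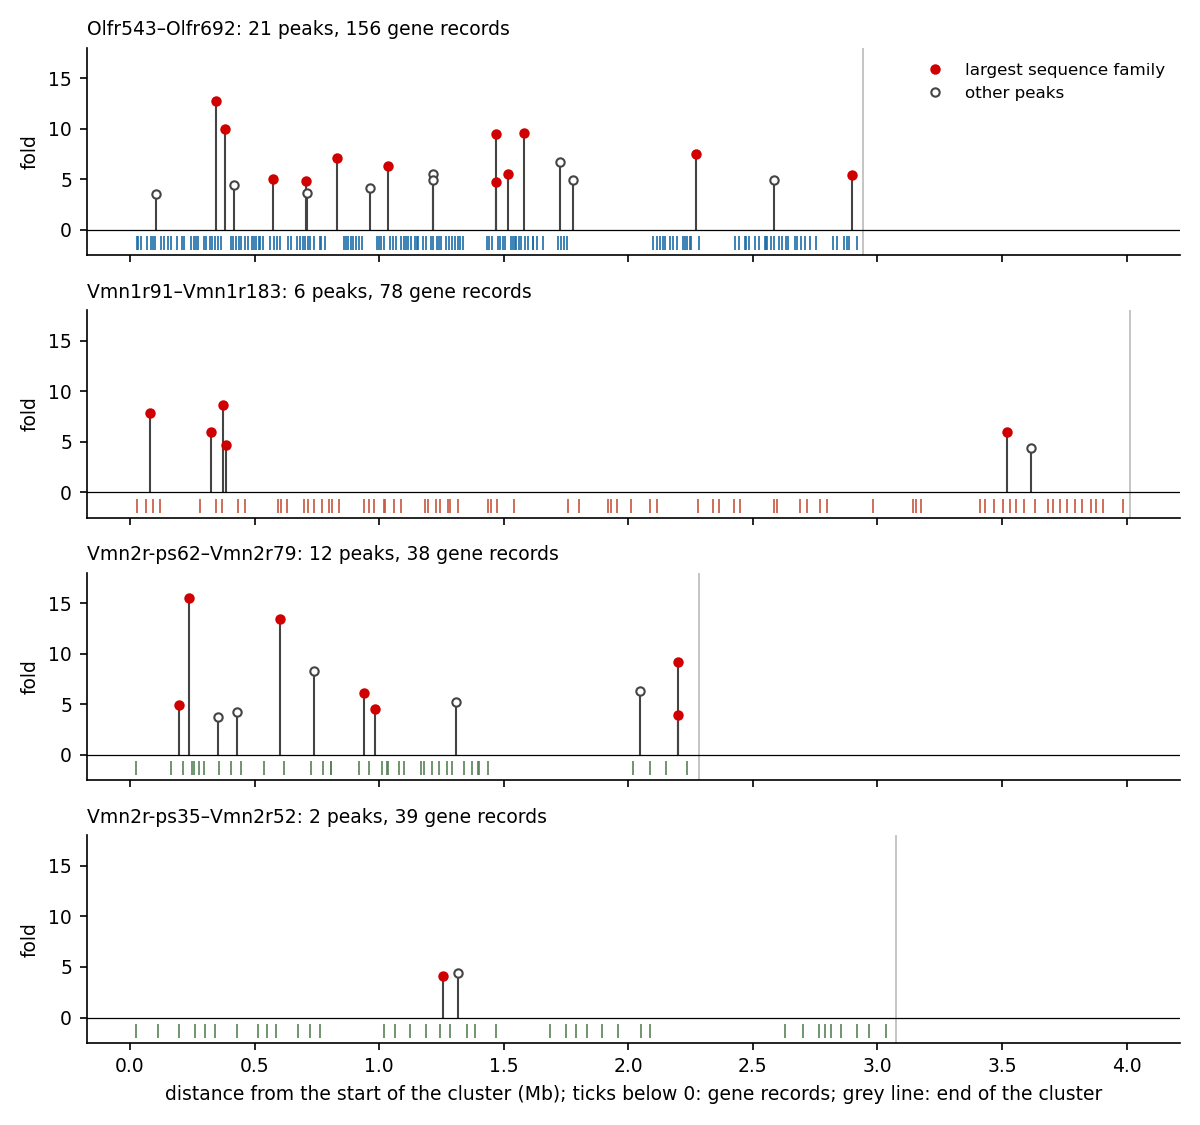
Fold enrichment of each peak along 4 receptor clusters, by distance in Mb from the start of the cluster, with gene records as ticks under the axis and peaks of the largest sequence family as filled points. Olfr543 to Olfr692 holds 21 peaks and Vmn2r-ps62 to Vmn2r79 holds 12, whereas Vmn2r-ps35 to Vmn2r52 holds 2 weak ones.

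The strongest members shared a sequence family and differed in the receptors beside them. The highest −log10 q, 57.7, was that of a peak 12462 bp upstream of Olfr380 (ENSMUSG00000072709.3) on chromosome 11 from 73469686 to 73470673, with a fold of 16.1 and 68 fragments. It was followed by a peak 37374 bp upstream of Vmn2r-ps119 on chromosome 17 (15.1, 59 fragments) and by peaks at Olfr63 (13.1, 64 fragments) and Olfr165 (14.5, 59 fragments). The strongest Vmn1r peak lay 10886 bp upstream of Vmn1r82 (ENSMUSG00000058132.5) on chromosome 7, with a fold of 12.7 and 65 fragments. The others of the first 10 were at Olfr470, Vmn1r-ps103, Olfr1267-ps1, Olfr183 and Vmn1r64, with folds from 12.3 to 14.4 and 51 to 62 fragments. All 10 belonged to the largest sequence family, and 9 of the 10 lay upstream of a long open frame. The family links peaks in chains, so not every pair in it is alike. Over the printed 151 bp, Olfr380 and Vmn2r69 of this family were 45.7% identical.

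Members as a whole were no stronger than other peaks. Their median fold was 5.30 (quartiles 4.52 and 7.69), against 5.23 for the 12233 other peaks, and both had a median of 8 fragments and similar widths of 209 and 215 bp. Vmn1r peaks had a median fold of 5.97 (4.88 and 8.61), a width of 288 bp and 10 fragments, with 7 of 45 (15.6%, 7.75 to 28.8%) reaching 1 kb, against 6.43% of other peaks. Olfr and Vmn2r peaks had median folds of 5.30 and 5.22.

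Members differed from the list in sequence. Of their bases 97.6% were soft-masked, against 89.3% in other peaks. The summit 50-mer was repeated at 299 of 321 members (93.2%, 89.8 to 95.4%), against 80.6% of other peaks, and 121 (37.7%, 32.6 to 43.1%) had over 1000 copies, against 31.8%. The largest sequence family held 196 members (61.1%, 55.6 to 66.2%), against 49.5% of other peaks. It took 120 of 207 Olfr peaks, 35 of 45 Vmn1r peaks (77.8%, 63.7 to 87.5%) and 41 of 69 Vmn2r peaks. The second family held 33 members (10.3%), with a median fold of 4.50 against 6.31 in the first. A further 20 members (6.23%) aligned to no other peak, against 22.8% of other peaks.

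Unique summits were few. The 22 members with a unique summit 50-mer, 15 at Olfr, 0 of 45 at Vmn1r and 7 at Vmn2r records, had a median fold of 4.41 and 5 fragments. Counting unique summits alone, the ratio to the genome was 0.528 at Olfr and 0.583 at Vmn2r intervals, with no counting interval computed. The latter rests on 7 summits, so it does not establish a density under the genome's. Both ratios are per Mb of all sequence. Repeated 50-mers made up 17.3% of the Olfr and 38.4% of the Vmn2r intervals, against 14.1% of all chromosomes. The position of the repeated summits among their copies is uncertain, which leaves the unique ones as the members whose place is read most directly. Unique means here only that the 50-mer has no other exact copy, and near copies were not counted. The strongest of them lay 27999 bp downstream of the TSS of Vmn2r69 on chromosome 7, with a fold of 13.5 and 42 fragments, and the next inside a receptor record 11606 bp downstream of the TSS of Vmn2r55, with 9.49 and 22 fragments. Both belonged to the largest sequence family although their 50-mers occurred once. At the Vmn2r55 summit the central 36 bp occurred 2249 times. The following 3, at Olfr282 (5.28), Olfr1358 (4.91) and Vmn2r86 (4.53), had 6 to 8 fragments.

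As in the list as a whole, members beside long open frames, stretches of at least 1000 codons without a stop, were the stronger ones. Frames of this kind occur in full-length transposable elements, and no annotation of elements was used here. The 100 members with a summit in the 3 kb upstream of such a frame had a median fold of 9.12 (5.96 and 11.1), 22 fragments and a width of 641 bp. The 221 others had 4.94 (4.40 and 5.71), 7 fragments and 171 bp. Over all 12554 peaks the values were much the same, with a median fold of 8.56 and 22 fragments for the 3405 upstream of a frame and 4.82 and 7 fragments elsewhere. The share upstream of a frame was 31.2% of members and 27.0% of other peaks. The order was the same in each family, with medians of 9.28 and 4.90 at Olfr, 9.03 and 5.09 at Vmn1r, and 8.49 and 4.73 at Vmn2r records. The distance was narrow in range, with a median of 1718 bp and 57 of the 100 between 1500 and 2000 bp, against a median of 1678 bp over all peaks. Of the 100, 98 belonged to the largest sequence family, and 27 held the run of 30 bases shown above, against 9 of the 221 others.

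**Figure D5:**
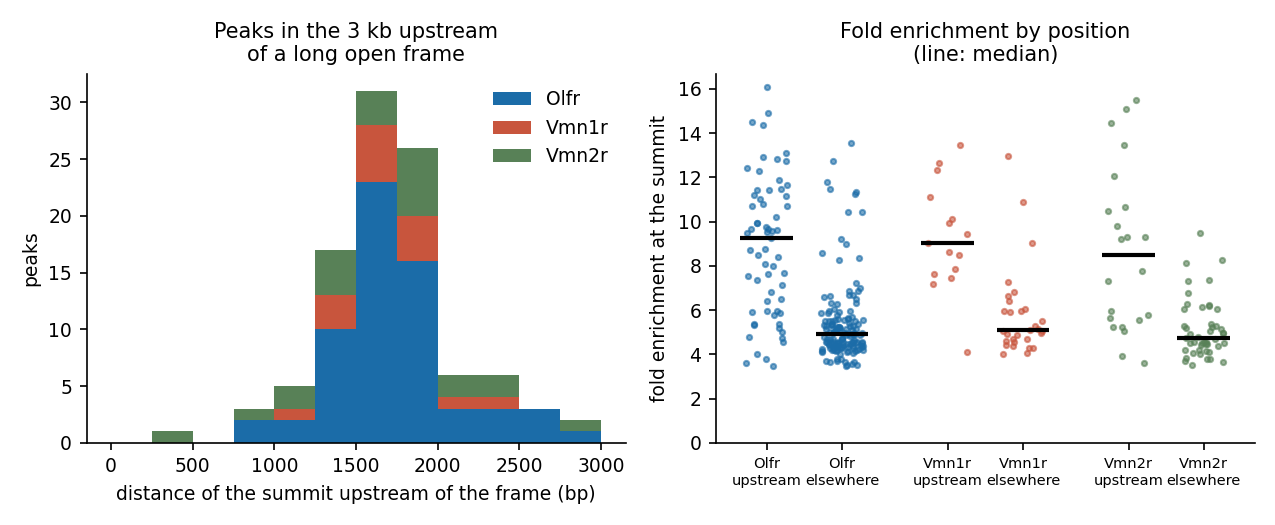
Left, number of members by distance in bp of the summit upstream of a long open frame, stacked by family, and right, fold enrichment of each member upstream of a frame or elsewhere, with the median as a line. Most of the 100 upstream peaks gather between 1500 and 2000 bp, and their medians lie from 8.49 to 9.28 against 4.73 to 5.09 elsewhere.

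Frames at receptor genes were occupied about as often as elsewhere. The receptor intervals held 160 long frames, of which 88 (55.0%, 47.3 to 62.5%) had a summit in the 3 kb upstream, against 54.2% of the 5705 in the genome. By family the counts were 56 of 95 for Olfr (58.9%, 48.9 to 68.3%), 14 of 32 for Vmn1r (43.8%, 28.2 to 60.7%) and 18 of 34 for Vmn2r (52.9%, 36.7 to 68.5%). Frames numbered 3.02 per Mb at Olfr, 3.34 at Vmn1r and 2.56 at Vmn2r records, against 2.16 over all chromosomes. No counting interval was computed for these values, and the vomeronasal ones rest on 32 and 34 frames. The emptiest Vmn2r cluster held 1 such frame without a summit, and Vmn1r91 to Vmn1r183 held 8, of which 2 had one.

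Genes that act with the receptors were too few to show a likeness to, or a difference from, genes in general. Within 25 kb of 13 genes of olfactory and vomeronasal signalling and receptor choice lay 4 summits in 1.60 Mb. This is fewer per Mb than the genome's 4.74, and no counting interval was computed. Of the 13 genes 3 had a summit, beside 22.1% of all gene records and 25.7% of protein-coding records, and 10 had 0. These 10 included Omp (a marker of mature olfactory neurons), Adcy3 and Cnga2 (the adenylyl cyclase and channel of odour transduction), Lhx2 and Ldb1 (factors of the enhancers that act on Olfr genes), Lbr (a nuclear envelope protein tied to heterochromatin position) and Kdm1a (a histone demethylase). Trpc2, the channel of vomeronasal transduction, had 1 summit with a fold of 6.97, Gnao1, a G protein subunit of Vmn2r neurons, had 2 with a highest fold of 6.15, and Ebf1 had 1 with 4.93.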

How the data were processed

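Anti-HA ChIP-exo was analysed from 2 libraries of DMSO-treated EHMT2-dTAG mESCs, deposited as a single list of 12556 peaks. The authors trimmed reads, aligned them to mm10 with STAR writing multimapping reads once at a random best site, removed duplicates and High Signal Region reads, pooled the replicates and called peaks with MACS2 without a control, keeping q-values under 0.05. The submitters' processing notes name STAR 2.7.10, Picard 2.26.0, SAMtools 1.14, bedtools 2.30.0, MACS2 2.2.6 and deepTools 3.5.1. The deposited columns give start, end and summit, the fold enrichment (a ratio), −log10 p-value and −log10 q-value at the summit, and a score of 10 times −log10 q cut to a whole number.

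From these, the fragments at a summit were solved from fold and −log10 p (tolerance 0.0001), with 1 solution for each of the 321 members. The depth of the libraries is unknown. The 2 peaks on the mitochondrial genome were left out. Densities are per Mb without N bases in GRCm38.p6, with exact 95% Poisson intervals, and shares have Wilson intervals. Exact 50-mer copies were counted on both strands. Families are single-linkage groups from minimap2 2.31-r1302. Scripts (Python 3.11.15, scipy 1.17.1) were tested on simulated data. Members, gene lists and comparisons were chosen with earlier results of these data known. Text names followed a rule: the 10 members with the highest −log10 q, the top 3 of each family, the 3 clusters with the most peaks and the 3 longest with 0, the densest and emptiest clusters of at least 1 Mb, genes with the most summits, up to 10 promoter or exon peaks, 5 unique summits and the strongest members of 3 sequence families. The sequence of the third family is not reported here. Names outside it were chosen after their values were seen.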

Additional observations from a re-analysis of the deposited data

How the results depend on the processing

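Of 110 values recomputed under alternatives, 74 stayed within the range set around the reported value. For ratios, densities, shares and the median fold, this range was the interval of the reported value. For the numbers of peaks and clusters it was a wide fixed range and not a counting interval. It ran from 214 to 481.5 for the 321 members and from 78.67 to 177 for the 118 clusters. The flank and the use of unique summits alone moved the densities most. Without a flank the number of members was 39 and the ratio to the genome turned to 0.575 for Olfr and 0.561 for all receptors, with 0 for Vmn1r and 0.729 for Vmn2r. A flank of 10 kb gave 211 members and a ratio of 1.10 for all receptors. With unique summit 50-mers alone, 22 members remained and the ratios were 0.528 for Olfr, 0 for Vmn1r, 0.583 for Vmn2r and 0.451 for all receptors. These reversals rest on fewer peaks by construction, and their cause was not tested. No counting interval was computed for the ratios of unique summits. Per soft-masked Mb the ratio for all receptors was 1.07. Each merged interval on its own gave 301 clusters, 53.8% of them with 0 peaks. Among Olfr intervals of at least 1 Mb taken this way, the lowest density was 2.59 per Mb, below the genome's 4.74. Among the joined Olfr clusters of at least 1 Mb, the lowest density was 5.04, and 2.42 once peaks with a q above 0.001 were dropped. The genome's 4.74 counts all peaks, so it cannot be set against the value of 2.42. At the stricter q, 225 members and 7980 other peaks remained on the 2648 Mb of the chromosomes, which is more than 2.42 per Mb. Not all 10 Olfr clusters were therefore above the genome at that q, and no counting interval was set beside this comparison. Within 10 kb of a summit lay 12.7% of Olfr, 8.56% of Vmn1r and 14.7% of Vmn2r records (12.3% of all records), and within 100 kb 74.98%, 59.3% and 66.8% (54.4%). At a q-value of 0.001 or lower, 21.5% of Olfr and 21.4% of Vmn2r records had a summit within 25 kb (14.3% of all records), and members had a repeated 50-mer in 98.2%, at least 50% soft-masked bases in 97.3%, a median fold of 6.24, 73.8% in the largest sequence family and 41.3% upstream of a long frame. Among other peaks at this q, 89.1% had a repeated 50-mer, the median fold was 6.22, and the last 2 shares were 63.9% and 38.2%. Repeated 50-mers were 82.1% and mostly masked peaks 89.7% without a flank, and 89.2% and 91.4% with 100 kb. Over all peaks these shares were 80.9% and 81.4%. By 100-mers 77.6% were repeated. The ratio to the density of the same chromosomes, and to the 500 kb beside the intervals, were alternatives chosen after seeing the data, and all 8 of their values stayed within the intervals. No paired analysis was possible because both libraries entered a pooled list, and for the same reason no replicate could be left out.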
